A study of Mus musculus with 4 samples.

Results

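Gene expression in the whole lung was compared between 6 h and 90 h after mice of the inbred strain C57BL/6J had breathed an aerosol of hexamethylene diisocyanate (HDI) at 10 mg per cubic metre. HDI is a reactive monomer of polyurethane paints and coatings that binds thiols and amines and irritates the airways. Total RNA of each pool of lungs was hybridised to 1 Affymetrix MG_U74Av2 oligonucleotide array. The 2 arrays are those of the exposed lungs at 6 h and at 90 h, of 4 in the series. The array of lungs taken 18 h after the same dose served only as a level in between, and the array of unexposed lungs had no part. Both groups therefore shared strain, tissue, agent and dose, and differed in the time since exposure by 84 h. The sources used here do not give how many mice went into a pool, how long they breathed the aerosol or at what hour of day lungs were taken. The comparison asks which transcripts set the acute lung apart from the lung some days later.

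Cells exposed to an electrophile release the transcription factor NRF2, which switches on glutathione synthesis and thioredoxin enzymes, while free zinc acts through MTF1 on the metallothioneins. Misfolded proteins act through heat shock factor and the integrated stress response, and stress of the whole animal raises glucocorticoids, whose receptor acts on genes such as Fkbp5 and Zbtb16. In later repair of the lung, monocytes and macrophages clear debris, epithelial, endothelial and connective tissue cells divide, and fibroblasts lay down collagen and elastic fibres. These statements are background and not results of these arrays.

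Levels are given in scaled intensity units, after both arrays had been brought to a common trimmed mean. Values under 79.7 units, the 40th percentile, were set to that floor. A gene at the floor on 1 array has only a limit to its difference, stated with the words at least, and a gene at the floor on both was not compared. All 12422 non-control probe sets entered the scaling, and 10833 of them carried 1 gene symbol, which gave 8251 genes. Of these, 6041 were above the floor at 6 h or at 90 h and were compared, 5343 of them above it at both times. With 1 array per time there was no replicate spread and no test, so every fold below describes these pools. In a pool of whole lungs, fewer cells of a type cannot be told apart from less RNA per cell.

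The arrays were alike in general signal. The deposited intensities had medians of 105.6, 106.1 and 108.0 at 6, 18 and 90 h, and log2 levels at 6 h and 90 h correlated with Pearson's r = 0.912 across the 5343 genes measured at both times, which are not independent replicates. The 3' to 5' signal ratio of Actb, a sign of RNA integrity, was 1.3 at 6 h, 1.36 at 18 h and 1.55 at 90 h, and that of Gapdh was 1.16, 1.12 and 1.22. Probe sets for spike-in controls, 9 in number and left out of the scaling, were higher at 90 h by a median log2 difference of 0.486 (range 0.22 to 0.852). Relative to them the median compared gene stood at -0.473, and the part of this in any gene's difference was not tested. Probe sets of the same gene disagreed in the 90 h minus 6 h difference with a robust SD of 0.271 log2 units over 288 pairs, a yardstick that leaves out variation between animals and between hybridisations. Lung markers were among the brightest signals at both times, with Sftpc at 9608 and 9418 units, Scgb1a1 at 9071 and 8153 units and Ager at 4114 and 4396 units at 6 h and 90 h. Sftpd and Marco were at the floor at both times.

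Most genes had similar levels at the 2 times. The median log2 difference over the compared genes, 90 h minus 6 h, was 0.0132. Of all compared genes 3122 (51.7%) lay above 0 and 2919 below 0. Counts of list members above or below 0 are to be read beside that share. At 90 h 121 genes were at least 2-fold higher, 2.0% of those compared, and 129 were at least 2-fold lower, 2.14% of those compared. The differences in the lower direction were the larger ones: 19 genes were over 4-fold lower and 6 over 4-fold higher. Past 3-fold the counts were 45 lower and 28 higher. Of the genes past 2-fold, 98 higher and 104 lower ones were measured at both times, and the other 23 and 25 were at the floor at 1 time. At least 1 further probe set was compared for 21 of the higher genes. Its difference, or the median where a gene had several, had the same sign in 17 and passed 2-fold in 3. For 31 lower genes with a further probe set, that value had the same sign in 28 and passed 2-fold in 14. Because the lower genes also had the larger differences, these counts cannot show which direction was the better backed. All gene lists below were drawn up from textbook knowledge with earlier results of these arrays known, so their counts describe and do not test.

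**Figure D1:**
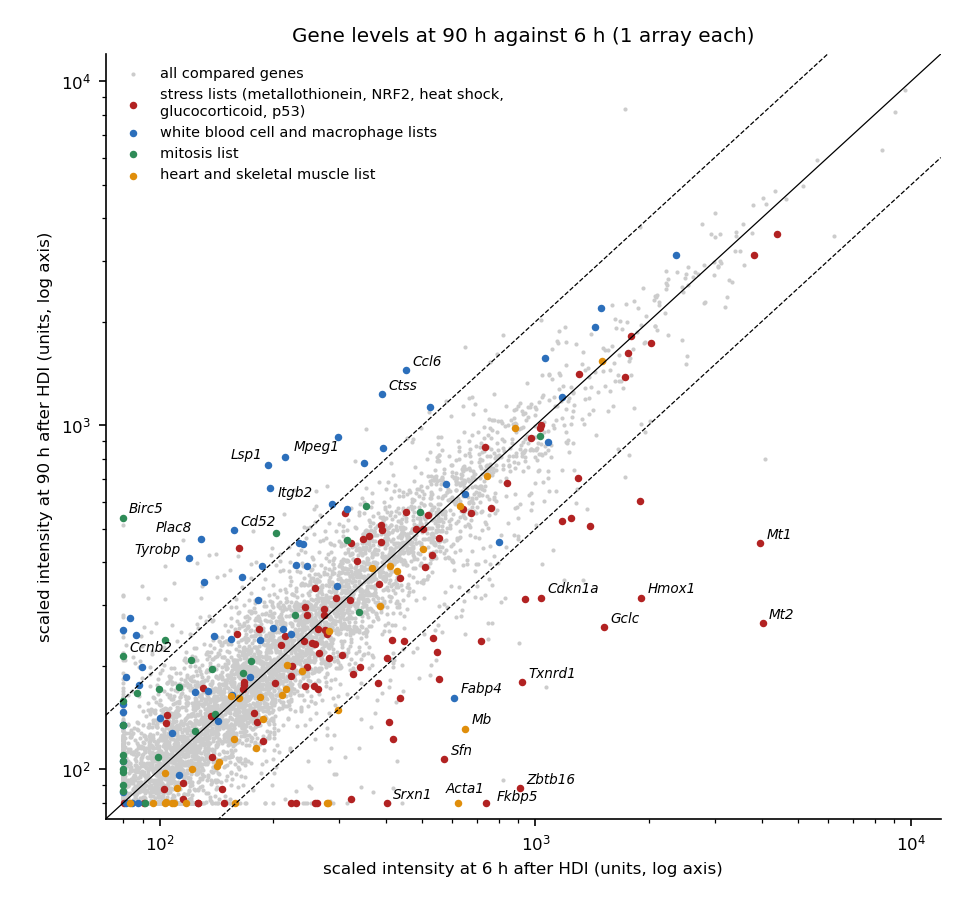
Level of each of the 6041 compared genes at 6 h (x axis) and 90 h (y axis) after HDI, in scaled intensity units on log axes, with values under the floor of 79.7 units drawn at the floor. The solid line marks equal levels and the dashed lines 2-fold; stress genes such as Mt2, Mt1, Hmox1 and Gclc lie under the lower dashed line, and white blood cell and macrophage genes such as Lsp1, Ctss and Ccl6 lie above the upper one.

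The metallothioneins, small proteins that bind zinc and other metals through their cysteines, included the gene with the largest difference of all, Mt2. Mt2 read 4029 units at 6 h, 1807 units at 18 h and 266 units at 90 h, a level 15.2-fold lower at the last time. Mt1, its neighbour in the genome, read 3963, 1534 and 454 units and was 8.73-fold lower. For both genes the 18 h pool lay between, nearer to 6 h on the log scale. Among the zinc transporters none passed 2-fold. Slc30a1, the zinc exporter at the cell surface, read 126 units at 6 h, 82.0 units at 18 h and under the floor at 90 h, at least 1.58-fold lower, and the vesicle transporter Slc30a4 was 1.53-fold lower. Over the 12 compared genes of metallothioneins and zinc transport, 9 lay below 0, 2 passed 2-fold lower and 0 higher, and the median log2 difference was -0.295.

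The genes of glutathione synthesis and the NRF2 response followed. Hmox1, the enzyme that degrades heme, read 1916 units at 6 h, 519 units at 18 h and 316 units at 90 h, 6.07-fold lower. Gclc, the catalytic subunit of the enzyme that limits glutathione synthesis, read 1523, 509.8 and 259.8 units and was 5.86-fold lower. Its partner Gclm, the modifier subunit, read 263, 146 and under 79.7 units, at least 3.3-fold lower. Txnrd1, which reduces thioredoxin, read 921, 335 and 179 units and was 5.14-fold lower, and Srxn1, which repairs oxidised peroxiredoxins, read 402, 165 and under 79.7 units, at least 5.05-fold lower. In all 5 genes the 18 h level lay between the other two, and the 6 h pool was the highest. The set was uneven, however. Of its 27 compared genes, 21 lay below 0 and 5 passed 2-fold lower, those just named, with a median log2 difference of -0.287, and the small MAF protein Mafk, an NRF2 partner, came next at 1.91-fold lower. The glutathione S-transferases, which join glutathione to electrophiles, stood at a median of -0.0369 over 17 genes with 9 below 0. Only Gsta4 among them passed 2-fold, with 201, 234 and 97.8 units.

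The promoters of 3 of these genes are shown because all were lower at 90 h and their response elements are well known. Each is the 250 bases that precede the RefSeq start, on build GRCm38.p6, written 5′ to 3′ on the gene's strand. For Mt2 (chr8:94172368-94172617, plus strand), capitals mark the metal response element, searched as TGCGCNC or TGCACNC on both strands. For Srxn1 (chr2:152105274-152105523, plus strand) they mark the AP-1 element TGACTCA, and for Gclm (chr3:122245307-122245556, plus strand) the antioxidant response element TGACNNNGC, each read on either strand.
Mt2: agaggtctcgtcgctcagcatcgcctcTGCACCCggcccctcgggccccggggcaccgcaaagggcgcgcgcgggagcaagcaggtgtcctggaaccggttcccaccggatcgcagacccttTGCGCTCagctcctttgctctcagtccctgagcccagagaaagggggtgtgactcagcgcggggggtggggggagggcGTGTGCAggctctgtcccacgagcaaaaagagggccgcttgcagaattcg
Srxn1: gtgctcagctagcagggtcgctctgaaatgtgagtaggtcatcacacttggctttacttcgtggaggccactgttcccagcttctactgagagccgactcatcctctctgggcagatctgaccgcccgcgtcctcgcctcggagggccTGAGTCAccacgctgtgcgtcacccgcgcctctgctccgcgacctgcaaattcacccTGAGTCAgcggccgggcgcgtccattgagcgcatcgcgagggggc
Gclm: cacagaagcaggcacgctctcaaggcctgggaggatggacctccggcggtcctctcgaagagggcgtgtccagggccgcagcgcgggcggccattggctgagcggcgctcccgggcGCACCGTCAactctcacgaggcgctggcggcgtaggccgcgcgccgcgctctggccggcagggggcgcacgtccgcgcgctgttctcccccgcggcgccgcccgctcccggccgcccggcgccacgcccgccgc

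The Mt2 window held 3 metal response elements, whose first bases lay at -223, -128 and -50 from the start, and also 1 antioxidant response element that overlaps 1 AP-1 element. The Srxn1 window held AP-1 elements at -102 and -45 and 0 antioxidant response elements as searched here. The Gclm window held an antioxidant response element at -134. The Gclm gene is also listed from position 122245487, so the end of its window, counted from a later start, lies inside that span. Over the 80 lower genes with 1 listed start, 16 windows (20.0%) held the antioxidant response element, against 7 of the 80 higher genes (8.75%), 12% of the 3831 compared genes with a window and 10.0% of all 22862 windows. AP-1 elements were in 10.0% of the lower, 3.75% of the higher and 3.24% of the compared genes, and in 4.47% of all windows. The metal response element, a short and common string, was in 30.0%, 31.2% and 29.4% of the same sets and in 20.8% of all windows. Of 19 windows of the NRF2 list, 5 (26.3%) held the antioxidant response element. These are counts of letters and not of bound sites. Hmox1 and Gclc had no entry in the table of promoters.

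Genes of the glucocorticoid and fasting response made up the list with the lowest median of all, a log2 difference of -0.905 over 30 compared genes. Of these, 27 lay below 0 and 14 passed 2-fold lower, while 0 passed 2-fold higher. The list holds both metallothioneins and other genes that answer to several signals. Without the genes it shares with another list, the median was -1.16. Zbtb16, a zinc finger protein induced by the glucocorticoid receptor, read 908 units at 6 h, 103 units at 18 h and 88.3 units at 90 h, 10.3-fold lower. Its probe set carries a suffix for possible cross-hybridisation, and a further probe set gave a log2 difference of -1.17. Fkbp5, a co-chaperone that damps the receptor, read 739.7 units, then 152 units, then under the floor, at least 9.28-fold lower. Both genes had thus lost most of the 6 h signal by 18 h.

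Further members of that list act in metabolism. Pdk4, a kinase that inhibits pyruvate dehydrogenase in fasting, read 259 units at 6 h. It was under the floor at 18 h and 90 h, at least 3.24-fold lower. Angptl4, a secreted inhibitor of lipoprotein lipase, read 715, 488 and 237 units and was 3.02-fold lower. Glul, glutamine synthetase, read 1246, 468 and 539 units and was 2.31-fold lower, although a further probe set gave a log2 difference of only -0.0277. Errfi1, a feedback inhibitor of the EGF receptor, read 1893, 959 and 602 units and was 3.15-fold lower, and its further probe set gave -1.995. Cebpd, a transcription factor of the acute phase, read 1396, 1156 and 511 units and was 2.73-fold lower, and Nfkbia, the inhibitor of NF-kappaB, read 1179, 706 and 526 units and was 2.24-fold lower. Ddit4, which restrains mTOR, read 408, 178 and 138 units and was 2.97-fold lower.

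**Figure D2:**
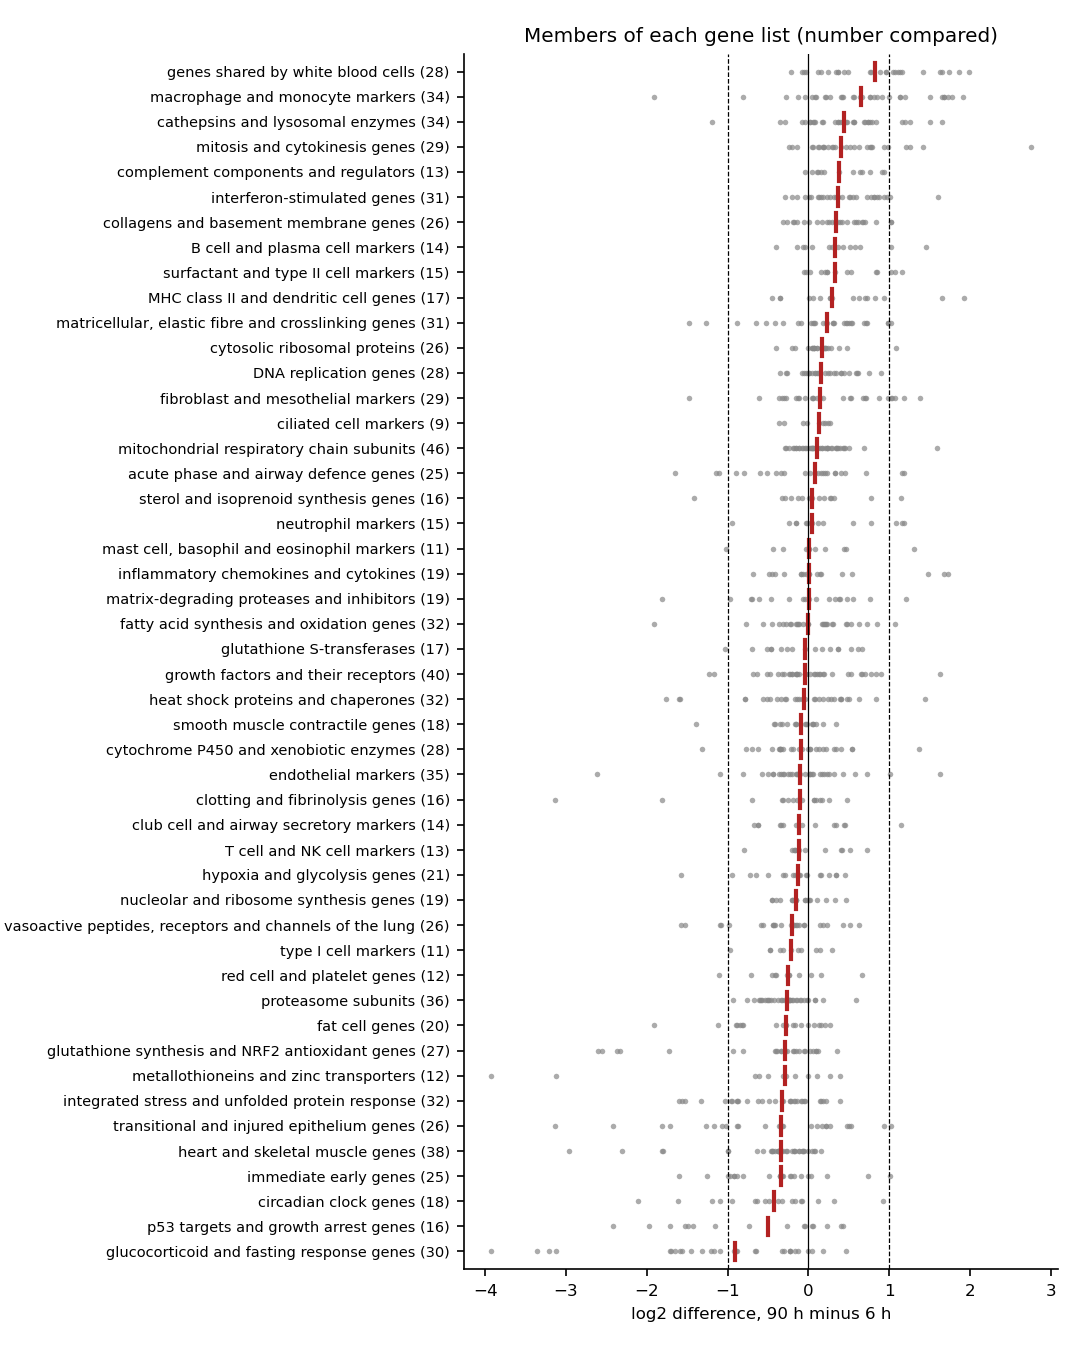
Log2 difference (90 h minus 6 h) of every compared member of 48 gene lists, 1 grey point per gene, with the number compared in parentheses and the list's median as a red bar. Dashed lines mark 2-fold, and genes at the floor of 1 array are drawn at their bound; medians run from -0.905 in the glucocorticoid list to 0.825 in genes shared by white blood cells.

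Growth arrest and immediate early genes were mostly lower at 90 h. Cdkn1a, the p21 inhibitor of cyclin-dependent kinases, read 1034, 395 and 316 units at 6, 18 and 90 h and was 3.28-fold lower, with a further probe set at a log2 difference of -0.533. Sfn, the 14-3-3 sigma protein of stressed epithelium, read 572, 294 and 107 units and was 5.36-fold lower. The 3 Gadd45 genes, stress sensors of the p38 and JNK pathways, were all lower: Gadd45g by 3.92-fold (322, 194 and 82.2 units), Gadd45b by 2.23-fold (535, 304 and 240.3 units) and Gadd45a by at least 2.8-fold. Sesn1 was 2.69-fold and the death receptor Fas at least 2.89-fold lower. Of 16 compared p53 and growth arrest genes, 11 lay below 0 and 7 passed 2-fold lower, with a median of -0.503. The median was smaller, between -0.167 and -0.364, with another floor or with a pseudocount in its place. Among 25 immediate early genes, 20 lay below 0, with a median of -0.344, but only 2 passed 2-fold lower. These were Atf3, with 295, 99.0 and 97.1 units (3.04-fold lower), and Fosl1, an AP-1 subunit, at least 2.39-fold lower. Other probe sets of Atf3 gave log2 differences of -0.356 and 0.0394. Egr1, at 1006, 739 and 511 units, was 1.97-fold lower. Klf2, the flow-responsive factor of endothelium, went the other way, with 221, 446 and 443 units.

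Among chaperone genes, 3 passed 2-fold lower. The stress-inducible Hsp70 genes Hspa1b and Hspa1a read 941, 804 and 312 units and 417, 369.5 and 123 units at 6, 18 and 90 h, 3.01-fold and 3.4-fold lower. Unlike the NRF2 genes, both were still near the 6 h level at 18 h. They are near-identical copies, so their probes may share signal. Hspb8, a small heat shock protein, was 3.04-fold lower (554, 348 and 183 units). Over all 32 compared heat shock and chaperone genes the median was -0.0612, with 17 below and 15 above 0. Hspa4, an Hsp70 nucleotide exchange factor, read 163, 329 and 440.4 units. Its 3 other compared probe sets gave a median of -0.335, with the opposite sign. The integrated stress and unfolded protein response genes stood at a median of -0.322 over 32 genes, 27 of them below 0 and 5 past 2-fold lower. Ppp1r15a, which reverses the block on translation, was at least 2.51-fold lower, and Dnajb9, an endoplasmic reticulum chaperone, was 2.05-fold lower (418, 313 and 204 units). Slc3a2, a chain of amino acid transporters, was 1.95-fold lower. P4hb passed 2-fold by a probe set marked for cross-hybridisation, while the other gave a log2 difference of 0.0463.

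The proteasome, which degrades ubiquitinated proteins, showed a small difference spread over nearly all subunits. Of 36 compared subunit genes 32 lay below 0, the median was -0.263, and 0 passed 2-fold in either direction. The summed level of the 37 on the array was highest at 18 h, with 14580, 18480 and 11840 units at 6, 18 and 90 h. The ATPase subunit gene Psmc1 was furthest, with 293, 279 and 154 units (1.91-fold lower), followed by Psmd11 with 811, 654 and 479 units (1.69-fold lower). Psme1, a subunit of the activator induced by interferon, read 281, 504 and 423 units, 1.51-fold higher at 90 h.

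Several genes of injured epithelium, and tissue factor and the urokinase receptor among clotting genes, were higher at 6 h than at 90 h. F3, tissue factor, which starts clotting when blood meets tissue, read 819.5 units at 6 h, 535 units at 18 h and 93.2 units at 90 h, 8.79-fold lower. Plaur, the urokinase receptor, read 279, 151 and under 79.7 units, at least 3.5-fold lower. Ccn2, the connective tissue growth factor, was 2.4-fold lower (1372, 904 and 572 units). Several of these genes had their highest level at 18 h. Sprr1a, a precursor of the cornified envelope made by squamous and injured epithelium, read 161 units at 6 h, 482 units at 18 h and under the floor at 90 h. Hbegf, an EGF receptor ligand, read 565, 588 and 251 units, 2.25-fold lower at 90 h than at 6 h. Krt18 was 2.1-fold lower, although its further probe set gave 0.143. Of 26 compared genes of transitional and injured epithelium 8 passed 2-fold lower and 1 higher, with a median of -0.338. Without the genes shared with other lists the median was -0.145. Of 16 clotting and fibrinolysis genes, only F3 and Plaur passed 2-fold lower, 7 lay above 0, and the median was -0.109, or 0.0673 without genes shared with other lists.

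The acute phase genes were mixed. Their median was 0.0868 over 25 compared genes, with 3 past 2-fold lower and 2 past 2-fold higher. Serpina3n, a secreted protease inhibitor, read 747, 1111 and 239 units at 6, 18 and 90 h and was 3.13-fold lower at 90 h than at 6 h. Socs3, the feedback inhibitor of IL-6 signalling, read 483, 622 and 225 units and was 2.15-fold lower, with its further probe set at -1.34. Lrg1, a plasma glycoprotein of the acute phase, read 774, 1692 and 417 units, 1.86-fold lower. All 3 genes were highest at 18 h and lowest at 90 h. Il4ra, a receptor chain for IL-4 and IL-13, was 2.2-fold lower. In the other direction, the membrane mucin Muc1 read 821, 1402 and 1828 units and was 2.23-fold higher, and lactoferrin, Ltf, was 2.27-fold higher from a dim level of 95.5 units.

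**Figure D3:**
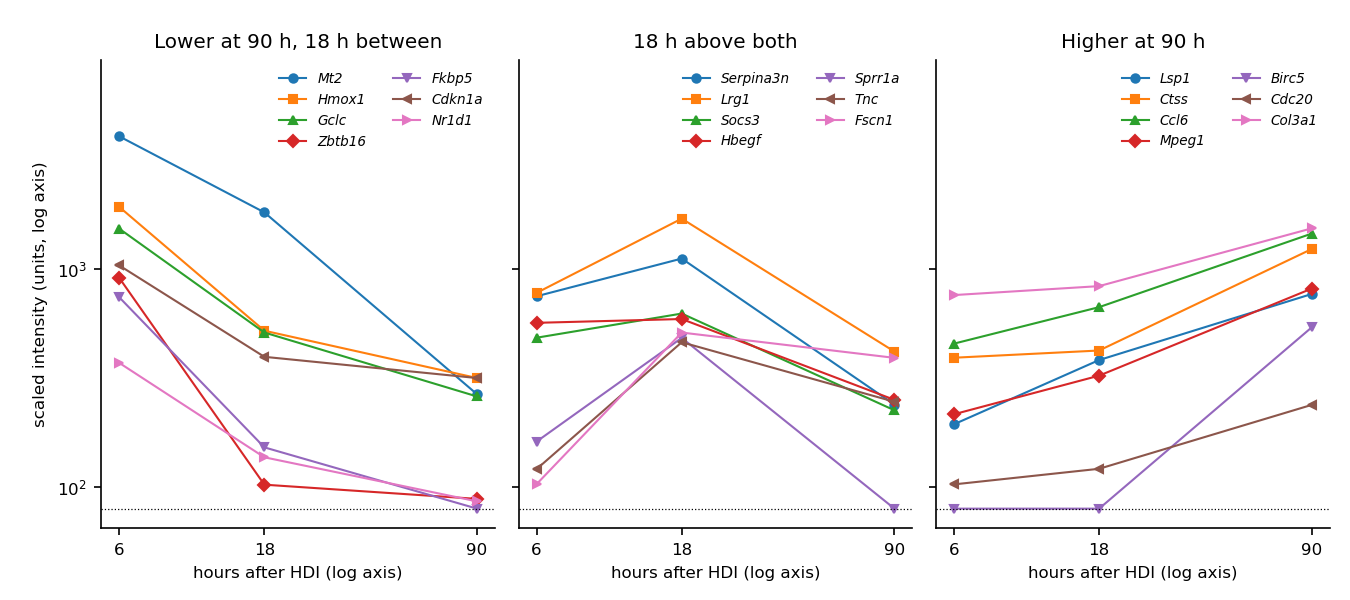
Levels of 21 genes at 6, 18 and 90 h after HDI (x axis, hours on a log axis) in scaled intensity units (y axis, log axis), 1 array per time, with the floor of 79.7 units as a dotted line. The left panel holds genes with 18 h between (Mt2 from 4029 to 1807 to 266 units), the middle one genes highest at 18 h (Lrg1 at 774, 1692 and 417 units) and the right one genes higher at 90 h (Lsp1 at 194, 381 and 765 units).

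Genes of the circadian clock differed as well. Nr1d1, the repressor REV-ERB alpha, read 370.4, 137 and 86.0 units at 6, 18 and 90 h and was 4.31-fold lower. Its relative Nr1d2 was at least 3.05-fold lower, Tef, an output factor of the clock, was 2.28-fold lower (635, 373 and 278 units), and Per1 was 2.13-fold lower. Arntl, the activator BMAL1, which Nr1d1 represses, read 100.3, 122 and 191 units, 1.9-fold higher at 90 h. Over 18 clock genes 15 lay below 0, with a median of -0.429. The 2 pools were 84 h, or 3.5 days, apart, so, had exposures started at the same hour, these lungs would have been taken at opposite phases of the day. The pools of 18 h and 90 h were 72 h, or 3 days, apart. Per1 also belongs to the glucocorticoid list. The part of the hour of day in this or any other list was not tested.

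Vasoactive and hypoxia-related genes were lower in part. Adm, adrenomedullin, a dilator peptide, read 290.1, 123 and 97.1 units and was 2.99-fold lower at 90 h than at 6 h, and Edn1, the constrictor endothelin-1, read 381, 264 and 178 units and was 2.14-fold lower, with a further probe set at -0.685. The natriuretic peptide receptors Npr1 and Npr3 were at least 2.88-fold and 2.12-fold lower. Of 26 vasoactive genes 20 lay below 0 and 4 passed 2-fold lower, with a median of -0.198. In the hypoxia and glycolysis list only Adm passed 2-fold among 21 genes, and the median was -0.125.

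Muscle and fat genes were lower at 90 h too. Acta1, skeletal muscle actin, read 622 units at 6 h, 399 units at 18 h and 1.72 units, under the floor, at 90 h, at least 7.8-fold lower. Mb, myoglobin, read 651, 369.8 and 131 units and was 4.95-fold lower, with a further probe set at -0.539, and Myl1, a fast muscle myosin light chain, was at least 3.52-fold lower. Of 38 compared heart and skeletal muscle genes 34 lay below 0 and 5 passed 2-fold lower, with a median of -0.34, or -0.177 with the 60th percentile as floor. Their summed level was 12050 units at 6 h, 11240 units at 18 h and 9095 units at 90 h, and 0 of 48 were listed at 0 at either time. The heart genes Myh6 and Nppa read 386 and 185 units at 6 h and 298 and 163 units at 90 h. Ankrd1, a stress-induced gene of striated muscle that other cells also express, read 278, 381 and under 79.7 units. Among 20 fat cell genes 15 lay below 0, with a median of -0.273, or -0.0804 with the 60th percentile as floor, and a summed level of 10930 units at 6 h, 8333 units at 18 h and 9175 units at 90 h. Adipoq and Ucp1, fat cell genes, read 147 and 143 units at 6 h and were under the floor at 90 h. Fabp4, which fat cells, capillary endothelium and macrophages express, read 608, 166 and 162 units and was 3.76-fold lower. The part of muscle and fat tissue in the lower genes was not tested.

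Other genes among the furthest below their 6 h level had varied roles. Lyve1, the hyaluronan receptor of lymphatic endothelium and of some macrophages, read 1065, 319 and 174 units and was 6.12-fold lower. Cacna2d3, an auxiliary calcium channel subunit, read 4077, 797 and 796 units, 5.12-fold lower, and so had reached its 90 h level by 18 h. Mep1a, a membrane metalloprotease, read 419, 342 and 88.3 units and was 4.74-fold lower. The kinase genes Pim3 (429, 213 and 106 units, 4.05-fold lower), Map3k6 (at least 5.52-fold lower) and Prkch (at least 3.95-fold lower) belonged here too, as did Sphk1, sphingosine kinase (at least 3.63-fold lower). C1ql1, which the naming rule passed over for its spelling, read 406, 301 and 0 units.

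Among genes higher at 90 h, those of white blood cells stood at the head. The list of genes that white blood cells share had the highest median of all, 0.825 over 28 compared genes, with 24 above 0, 11 past 2-fold higher and 0 lower. Its summed level was 4795 units at 6 h, 6556 units at 18 h and 9928 units at 90 h, with 0 of its 30 genes listed at 0 at 6 h or 90 h. The part of a greater number of these cells in the other higher genes was not tested. Lsp1, an actin-binding protein of leukocytes, read 194, 381 and 765 units and was 3.95-fold higher, with a further probe set at a log2 difference of 1.79. Itgb2, the beta-2 integrin chain CD18, read 196, 281 and 655 units and was 3.35-fold higher. Cd52, a small surface glycoprotein, read 158, 321 and 495 units (3.13-fold higher), Lcp1, the leukocyte plastin, 299, 582 and 923 units (3.09-fold higher), and Plac8 129, 295 and 468 units (3.64-fold higher). In all 5 genes the order was 6 h, then 18 h, then 90 h. Ptprc, the common leukocyte antigen CD45, read 131, 165 and 351 units and was 2.67-fold higher, but its further probe set gave only 0.215.

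Macrophage and monocyte markers gave the next highest median, 0.649 over 34 compared genes, with 29 above 0, 10 past 2-fold higher and 1 lower. With each gene's probe sets averaged, the median was 0.467. The summed level was 15880 units at 6 h, 16890 units at 18 h and 22800 units at 90 h, with 0 of its 40 genes on the array listed at 0 at 6 h or 90 h. Mpeg1, a pore-forming protein of macrophages, read 215, 324 and 810.1 units and was 3.76-fold higher. Tyrobp, the signalling adaptor DAP12, read 119.7, 202 and 410.5 units (3.43-fold higher), and Csf1r, the receptor for M-CSF, 166, 196 and 363 units (2.19-fold higher). Ccr2, the receptor that brings monocytes out of the blood, was under the floor at 6 h, 127 units at 18 h and 255 units at 90 h, at least 3.2-fold higher. The neighbouring chemokine genes Ccl6 and Ccl9 read 453, 666 and 1446 units (3.19-fold higher) and 83.2, 158 and 275 units (3.3-fold higher). Chil3, a lectin of activated macrophages, read 392, 333 and 861 units and was 2.2-fold higher. The 1 lower member past 2-fold was Fabp4, described above. All the higher genes named here had their highest level at 90 h, and the 18 h level of Mpeg1, Csf1r and Chil3 was closer to that at 6 h than at 90 h.

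Lysosomal genes were higher with them, and this list shares Ctss, Ctsk and Cd68 with the macrophage list. Ctss is also in the MHC class II and dendritic cell list. Of 34 compared cathepsins and lysosomal enzymes 29 lay above 0, 5 passed 2-fold higher and 1 lower, and the median was 0.436. Ctss, a cathepsin that processes the MHC class II invariant chain, read 391, 422 and 1229 units and was 3.15-fold higher. Ctsk, a collagen-degrading cathepsin, read 86.2, 135 and 245 units (2.85-fold higher), Npc1, which moves cholesterol out of lysosomes, was 2.39-fold higher (279, 404 and 665 units), and the mannosidase Man2b1 was 2.23-fold higher. Ctse went the other way, 2.28-fold lower, by a probe set marked for cross-hybridisation whose partner gave -0.0494. Complement components and regulators had a median of 0.383 over 13 compared genes, 12 of them above 0, without any past 2-fold. The median was 0.158 without genes shared with other lists and 0.591 with the floor at the 25th or 60th percentile. Clu, clusterin, read 470.3, 587 and 897 units, 1.91-fold higher.

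Genes of antigen presentation and of the interferon response were mostly higher at 90 h. The MHC class II and dendritic cell list had a median of 0.292 over 17 genes, with 14 above 0, and of 0.661 with the floor at the 60th percentile. H2-Eb1 read 642, 633 and 1138 units (1.77-fold higher) and H2-Ab1 562, 497 and 928 units (1.65-fold higher), both chains of class II molecules. Fscn1, fascin, which bundles actin in the arms of dendritic cells, read 103, 509.5 and 390.3 units, 3.79-fold higher at 90 h and highest at 18 h. The 31 interferon-stimulated genes had a median of 0.362, or 0.232 with the floor at the 60th percentile. Of the 31, 27 lay above 0 and 2 were over 2-fold higher. These were the guanylate-binding protein Gbp2, under the floor at 6 h, 119 units at 18 h and 242 units at 90 h (at least 3.03-fold higher), and Psmb9, an immunoproteasome subunit (at least 2.02-fold higher). Of 14 B cell genes 10 lay above 0, with a median of 0.327, or 0.124 with each gene's probe sets averaged, and Cd79a, a chain of the B cell receptor, read 132, 279.8 and 269 units (2.03-fold higher). T cell and NK cell genes had a median of -0.122 over 13 genes and 0 past 2-fold, with Cd3e at 94.5, 80.4 and 109 units.

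Neutrophil markers were mixed. The median over 15 compared genes was 0.0395, with 9 above 0 and 3 past 2-fold higher. S100a8, a calcium-binding protein of neutrophils and monocytes, read 197, 239 and 419 units and was 2.12-fold higher, and its partner S100a9 was at least 2.23-fold higher. Cxcr2, the receptor of neutrophil chemokines, read 154 units at 6 h and was under the floor at 18 h and 90 h, at least 1.93-fold lower. Among 38 inflammatory chemokines and cytokines on the array 19 were compared and the others were at the floor at both times. Their median was 0.00635. The neutrophil chemokine gene Cxcl1 read 141, 147 and 87.5 units, 1.61-fold lower. Cxcl12, a homeostatic chemokine of stromal cells, read 177, 415 and 494 units, 2.8-fold higher, with other probe sets at 0.507 and 1.63.

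Genes of mitosis were higher at 90 h, and the leading ones differed little between 6 h and 18 h. Birc5, survivin, a subunit of the chromosomal passenger complex, read 34.0 units at 6 h and 30.4 units at 18 h, both under the floor, and 539 units at 90 h, at least 6.76-fold higher, the largest bound in that direction. Ccnb2, cyclin B2, which drives entry into mitosis, was under the floor at 6 h and 18 h and read 214 units at 90 h, at least 2.68-fold higher. Cdc20, the activator of the anaphase-promoting complex, read 103, 121 and 238 units and was 2.31-fold higher. Stmn1, stathmin, which frees tubulin from microtubules, read 204, 239.8 and 486 units and was 2.38-fold higher, with a further probe set at only 0.284. Just under 2-fold were Mki67, the proliferation marker Ki-67 (at least 1.98-fold higher, further probe set at 0.483), and Aurkb, aurora kinase B (86.8, 93.0 and 167 units, 1.92-fold higher). Of 29 compared mitosis genes 26 lay above 0, 4 passed 2-fold higher and 0 lower, and the median was 0.404. The remaining 14 of the 43 on the array were at the floor at both times. DNA replication genes stood at a median of 0.16 over 28 compared genes, with 21 above 0 and 0 past 2-fold. Dnmt1, the maintenance DNA methyltransferase, read 94.3, 151 and 175 units, 1.86-fold higher, and Rfc2, of the clamp loader, 98.9, 144 and 166 units, 1.68-fold higher. Nucleolar genes, which make ribosomes, had a median of -0.152.

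The promoters of 2 mitosis genes are shown because such genes commonly carry CCAAT boxes before the start. Each is again the 250 bases preceding the RefSeq start, on build GRCm38.p6, written 5′ to 3′ on the gene's own strand: Cdc20 at chr4:118437344-118437593 and Ccnb2 at chr9:70421555-70421804, both on the minus strand. Capitals mark CCAAT, searched on both strands.
Cdc20: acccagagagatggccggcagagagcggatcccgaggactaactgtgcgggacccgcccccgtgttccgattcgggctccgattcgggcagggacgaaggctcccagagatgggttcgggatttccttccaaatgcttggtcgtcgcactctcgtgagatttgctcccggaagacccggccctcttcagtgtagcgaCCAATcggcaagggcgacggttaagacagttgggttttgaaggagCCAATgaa
Ccnb2: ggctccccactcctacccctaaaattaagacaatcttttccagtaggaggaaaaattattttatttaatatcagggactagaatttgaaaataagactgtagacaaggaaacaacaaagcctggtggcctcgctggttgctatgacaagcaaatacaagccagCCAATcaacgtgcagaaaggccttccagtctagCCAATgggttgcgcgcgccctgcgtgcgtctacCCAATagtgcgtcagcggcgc

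The Cdc20 window held 2 CCAAT boxes, at -53 and -8, and the Ccnb2 window 3, at -87, -54 and -21. Of 33 mitosis genes with a window 26 (78.8%) held CCAAT, against 36.5% of the compared genes and 34.7% of all windows. The 33 include genes at the floor at both times. CCAAT was also in 70.4% of windows of the integrated stress and unfolded protein response list, which was mostly lower at 90 h. It was in 61.8% of DNA replication, 52.4% of heat shock and 47.4% of NRF2 list windows, so a high share was not particular to mitosis genes. The cell cycle homology element, searched as TTTGAA or TTCGAA, was in 14 of the 33 (42.4%), against 12.6% of compared genes and 17.9% of all windows. Over all genes past 2-fold, CCAAT was in 40% of the higher and 40% of the lower ones. Stmn1 had no entry in the table.

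Matrix genes were moderately higher for the most part. Col3a1, a fibrillar collagen of compliant tissue, read 756, 831 and 1528 units at 6, 18 and 90 h and was 2.02-fold higher, with other probe sets at a log2 difference of 0.764. Col5a2 was 2.02-fold higher (209, 290.0 and 423 units), and the 2 chains of type I collagen came next, Col1a1 with 1155, 1198 and 1877 units (1.63-fold higher) and Col1a2 with 773, 738 and 1233 units (1.59-fold higher). A further probe set of Col1a1 gave a log2 difference of 0.531 and that of Col1a2 the opposite sign, -0.142. The 18 h level was close to that at 6 h for Col3a1, Col1a1 and Col1a2, and about midway for Col5a2. Of 26 compared collagen and basement membrane genes 20 lay above 0 and 2 were over 2-fold higher, and the median was 0.345. Among elastic fibre genes, Eln, elastin, read 1902, 1830.3 and 3762 units (1.98-fold higher), and the microfibril protein gene Mfap4 497, 386 and 983 units (1.98-fold higher). Lox, the enzyme that crosslinks both collagen and elastin, went the other way, with 525, 228 and 188 units (2.79-fold lower, further probe set at -1.29). Tnc, tenascin-C, a matrix protein of wounds, read 121, 460.1 and 246 units, 2.03-fold higher at 90 h and highest at 18 h, with a further probe set at 0.454. The matricellular, elastic fibre and crosslinking list had a median of 0.227 over 31 genes, with 22 above 0. In it 1 gene, Tnc, passed 2-fold higher and 2 lower, Lox and Ccn2, the latter described above. Ccn1 was 1.85-fold lower. Matrix-degrading proteases and inhibitors stood at 0.0044 over 19 genes, with Adam19 2.32-fold higher (95.2, 149 and 221 units) and Timp3 1.96-fold lower (2021, 1334 and 1029.5 units).

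Markers of the lung's own cell types were mixed. Type II cell genes had a median of 0.324 over 15 genes, 13 of them above 0 and 3 past 2-fold higher. These were Muc1, described above, Lpcat1, which makes surfactant lipid (455, 726 and 921 units, 2.03-fold higher), and Elovl1, a fatty acid elongase (520.2, 1205 and 1092 units, 2.1-fold higher). The surfactant protein genes Sftpb and Sftpc were not higher, with 3767 and 9608 units at 6 h and 3620 and 9418 units at 90 h. Type I cell genes stood at -0.215 over 11 genes, with Pdpn, podoplanin, at 485, 595 and 350.1 units. Club cell genes had a median of -0.116 over 14 genes and ciliated cell genes 0.128 over 9. Endothelial genes had a median of -0.108 over 35 genes. Within them Kdr, the main VEGF receptor, read 136, 325 and 419 units and was 3.09-fold higher, whereas Edn1 and Lyve1 were lower, as given above. Fibroblast and mesothelial genes had a median of 0.148 over 29 genes, or 0.422 without genes shared with other lists. Of them 5 passed 2-fold higher and 1, Lox, lower. Higher members included Tcf21, a lung fibroblast transcription factor, under the floor at 6 h, 149 units at 18 h and 208 units at 90 h. Another was Upk3b, a mesothelial marker, at 103, 189 and 234 units. Smooth muscle genes had a median of -0.0944 over 18, and red cell and platelet genes -0.254 over 12, with Hba-a1 at 8377, 7647 and 6319 units.

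Lists of housekeeping metabolism had small medians, but not all their members were flat. Ribosomal protein genes had a median of 0.163 over 26 genes, 22 of them above 0. Respiratory chain genes had 0.107 over 46, 32 of them above 0. Sterol synthesis genes stood at 0.0402 over 16 and fatty acid genes at -0.00879 over 32. Past 2-fold were Rpl13a (at least 2.12-fold higher), Cox4i1 (3.02-fold higher, probe set marked for cross-hybridisation), Srebf1 (2.215-fold higher) and Lpin1 (2.66-fold lower). Among fatty acid genes Elovl1 and Fabp4, described above, passed it too. Cytochrome P450 and other xenobiotic enzymes stood at -0.0982 over 28, with Adh1 2.585-fold higher and Sult1a1 2.48-fold lower. Growth factors and receptors stood at -0.0369 over 40, with Tgfbr3 2.34-fold lower beside Kdr and Hbegf, described above. Mast cell, basophil and eosinophil genes had a median of 0.0126 over 11. The chymase gene Cma1 read 261, 484 and 642 units (2.46-fold higher, further probe set at -0.28). Gata2, of the same list, read 421, 272 and 208 units and was 2.02-fold lower. The 12 reference genes had a median of 0.0734, and Rpl13a, also a ribosomal protein gene, was the 1 past 2-fold. Among 18 compared genes of other tissues, from liver and kidney to cartilage and nerve, 1 passed 2-fold, the kidney gene Kap at 94.5, 216 and 251 units, and their summed level was 5438 units at 6 h and 5381 units at 90 h. The 8 thymus genes had a median of 0.0319, and Sox4, which many growing tissues express, was the 1 past 2-fold (109, 149 and 347 units, further probe set at 1.74).

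Several of the highest differences fell outside these groups. Nrep, a neuronal regeneration-related protein, read 116, 90.5 and 465 units and was 4.02-fold higher at 90 h. Rgs11, a regulator of G protein signalling, read 89.7, 79.8 and 341 units (3.8-fold higher), Capg, an actin-capping protein, 92.9, 259 and 315 units (3.39-fold higher), and Gyg, glycogenin, 125, 315 and 397 units (3.17-fold higher). Capg and Gyg rest on probe sets marked for possible cross-hybridisation, and their further probe sets gave log2 differences of 0.745 and 0.792, under 2-fold. Cyth2, cytohesin-2, was under the floor at 6 h and read 505 units at 18 h and 514 units at 90 h, at least 6.45-fold higher. Ssbp2, Dsc3, Lta and Snx27 were under the floor at 6 h and 18 h and read 321, 319.7, 280.1 and 277 units at 90 h, from at least 4.03-fold down to at least 3.48-fold higher. The Lta probe set is also marked for possible cross-hybridisation. Its further probe set was under the floor at 6 h and 90 h (50.9 and 38.0 units). The gene model Gm15772, which has no descriptive name and was passed over by the naming rule, read 1732, 1819 and 8287 units.

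The 18 h pool gives a level between the acute and the late lung. Of the 104 lower genes measured at both ends, 55 (52.9%) had an 18 h level between the 2 ends and nearer to 90 h, and 35 (33.7%) between and nearer to 6 h. Another 5 lay beyond the 6 h level and 9 beyond the 90 h level. Of the 98 higher genes, 47 (48.0%) lay between and nearer to 90 h and 30 (30.6%) between and nearer to 6 h, 10 beyond the 6 h level and 11 beyond the 90 h level. Among the 5141 genes under 2-fold, 22.4% and 16.1% lay between, where the narrower span leaves less room. The early group of the lower genes held Zbtb16, Hmox1, Gclc and Cacna2d3, whereas F3, Hspa1a and Hspa1b were still nearer to their 6 h level. Among higher genes, Kdr and Plac8 were nearer to 90 h by then, and Ctss, Cdc20 and Col3a1 nearer to 6 h.

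**Figure D4:**
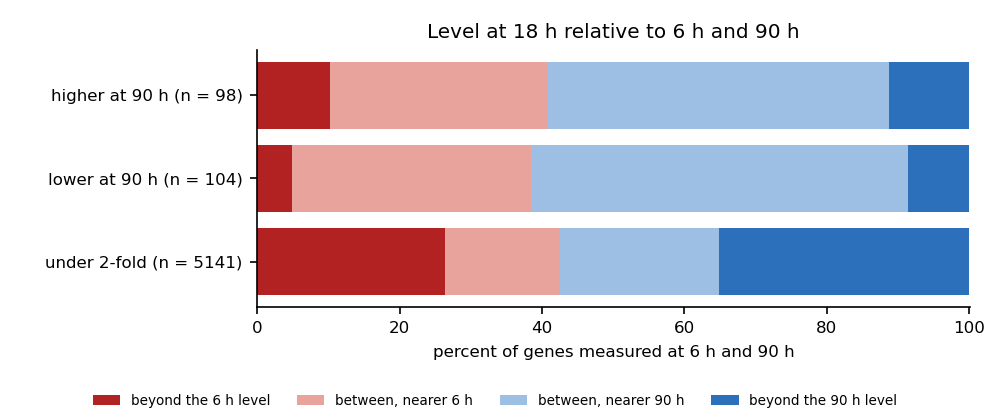
Percent of genes (x axis) whose 18 h level lay beyond the 6 h level, between and nearer to 6 h, between and nearer to 90 h, or beyond the 90 h level, for genes measured at 6 h and 90 h that were at least 2-fold higher (n = 98), at least 2-fold lower (n = 104) or under 2-fold (n = 5141). The level between and nearer to 90 h held 48.0%, 52.9% and 22.4% of them.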

How the data were processed

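The values deposited by the authors are linear intensities, 1 for each probe set of an array, with 102, 105 and 126 exact zeros at 6, 18 and 90 h. The sources used here do not give the software, the background correction or the scaling used for them, so their original scale factor stays unknown, while the direction of each comparison follows from the array titles. Probe sets took their symbols from the platform annotation, which left 396 with several symbols and 1193 unnamed. Each array was multiplied so that its mean, trimmed by 2% at each end, equalled that of the 6 h and 90 h arrays (factors 1.011, 0.9881 and 0.9895). Values were floored, log2 was taken, and the brightest probe set stood for its gene. No replicates existed, so no p-value was computed, and the number of arrays limits the precision.

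The naming rule took the 15 highest and 15 lowest measured differences and the 6 largest floor-limited differences each way. It also took up to 6 members of each of 51 gene lists and all members past 2-fold, with unnamed clones passed over. Some genes that it took, also some past 2-fold, are not printed above. C1ql1 and Gm15772 were added after their values were seen. The lists, members and rules were chosen with earlier results of these data known. Alternatives were no scaling, median scaling, quantile and cyclic loess normalization (limma 3.58.1 in R 4.3.3), floors at the 25th and 60th percentile, a pseudocount of 50 units, the mean over probe sets, and leaving out suffix-marked probe sets. Thresholds of 1.5-fold and 3-fold, the mean over list members and members above the floor on both arrays were also tried. The code, in Python 3.11.15 with pandas 2.3.3 and numpy 2.4.6, was tested on simulated data. Promoters came from RefSeq, build GRCm38.p6.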

Additional observations from a re-analysis of the deposited data

How the results depend on the processing

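Under 9 alternative settings of scaling, floor and probe set, the count of genes at least 2-fold higher (121) ranged from 67 to 170 and that of lower genes (129) from 98 to 169. The move past 1.5 times was that to 67 higher genes, with the floor at the 60th percentile. At a threshold of 1.5-fold 458 genes were higher and 375 lower, and at 3-fold 28 and 45. The lower share of genes past 2-fold was 51.6% and ranged from 48.6% to 59.4%. Of 138 genes past 2-fold that the naming rule took, 60 stayed past it in every setting that gave a value. The other 78 were under it in at least 1. Of the differences of all genes that the rule took 1 reversed, that of P4hb, at 0.0463 without suffix-marked probe sets. Among list medians, T cell and NK cell genes reversed to 0.034 as a mean over members, and clotting genes to 0.0673 without genes shared with another list. That alternative, for this and every list, was chosen after seeing the data, and the cause was not tested. Medians near 0 also changed sign: acute phase genes to -0.375 and P450 genes to 0.0234 in that setting, and acute phase genes to -0.0898 as a mean over members. Glutathione S-transferases went to 0.0846 without suffix-marked probe sets, fatty acid genes to 0.167 with the 60th percentile as floor and thymus genes to -0.0772 with that at the 25th. The fat cell median shrank from -0.273 to -0.0804 with the floor at the 60th percentile. No paired analysis was possible because each time had 1 array. Dim genes are limited most, since the floor shortens their differences, and variation between animals could not be measured.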
